A study of Rattus norvegicus with 12 samples.

Results

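The genes that make, pack and break down the catecholamines and acetylcholine were followed in F11 cells treated with forskolin. Members were all probes that the scanner files name Th, Ddc, Dbh, Gch1, Slc18a1, Slc18a2, Maoa, Chat or Ache, which gave 9 of the 35608 genes or unnamed transcripts on the array and 13 of its 41012 probes. Gch1 was found by its accession, NM_024356, since the files list it under the older symbol Gch, and the other 8 genes were found by name. The groups were 10 µM forskolin for 2 h, 4 h, 24 h and 48 h, with 3 samples each, and an unstimulated reference. F11 is a hybrid line of rat dorsal root ganglion neurons and mouse neuroblastoma cells. All cells, those of the reference included, had spent 3 h in medium with 0.5% serum before forskolin or harvest. Each of the 12 samples was hybridised in green (Cy3) with the common reference in red (Cy5), in the same orientation throughout, and 0 samples were unstimulated cells of a later time. An effect of forskolin and one of further time in culture thus cannot be told apart.

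Catecholamines are built from tyrosine. Tyrosine hydroxylase (Th) makes L-DOPA with the help of the cofactor tetrahydrobiopterin, aromatic amino acid decarboxylase (Ddc) turns L-DOPA into dopamine, and dopamine beta-hydroxylase (Dbh), inside the vesicle, turns dopamine into noradrenaline. Acetylcholine is made by choline acetyltransferase (Chat) and cleaved by acetylcholinesterase (Ache). Forskolin switches on adenylyl cyclases, which make cyclic AMP, and its effector CREB binds the cyclic AMP response element (CRE), and Th is a textbook target of this pathway in chromaffin cells.

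All changes below are log2 ratios of forskolin over reference for single probes after background correction and loess normalization, given with the SD over n = 3 arrays. A change was called at a Benjamini-Hochberg adjusted p under 0.05 in limma, over the 20630 probes whose signal stood well above background in either channel on each of the 3 arrays of some time point. Of the 13 probes, 9 passed this filter, for 7 of the 9 genes. A dye bias of a probe enters each ratio to the reference but drops out of a difference between times. Replicate 1, 2 and 3 of every time point lay on slide 1, 2 and 3, and each time point took the same position on its slides, so that time and position cannot be told apart. The labels do not call the replicates separate cultures, and the p-values then cover only the scatter of these samples, which could be technical. The share of signal that came from mouse transcripts was not worked out, and in RNA of a whole culture fewer expressing cells and less RNA per cell cannot be told apart.

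The labelled cell type was set against its markers in the reference channel. All 6 pan-neuronal markers, 8 of 10 neuroblastoma and sympathoadrenal markers and 7 of 13 sensory neuron markers were well above background on all 12 arrays. Of the sensory neuron markers, Scn11a was above background on 0 arrays, and Trpv1, Pou4f1 and Avil each on 1. The counts for other cell types were 2 of 7 glial, 3 of 6 fibroblast, 1 of 5 leukocyte and 1 of 4 endothelial markers, with S100b, Gfap, Dcn, Lum, Cd14, Cd3e, Aif1, Pecam1 and Tek on 0 arrays.

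The probe sequences are shown for Ache and Maoa, because both have more than 1 probe above background, those of Ache with different courses and those of Maoa with similar ones. The Ache probes share no stretch with each other, and the array's annotation describes X70140 and X70141 as glycolipid-anchored forms and NM_172009 only as acetylcholinesterase mRNA. The files give them no position.
Ache X70140: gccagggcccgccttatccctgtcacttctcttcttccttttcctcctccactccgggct
Ache NM_172009: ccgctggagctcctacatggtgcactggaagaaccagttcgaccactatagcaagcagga
Ache X70141: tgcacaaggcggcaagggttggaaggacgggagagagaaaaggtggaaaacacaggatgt
The Maoa probes overlap by 40 of their 60 bases, in capitals, and so are no independent measurements. On build rn3 they lie on the minus strand at chrX:17736994-17740285 (brighter probe) and chrX:17736974-17740265 (dimmer probe), spans of 3292 bases that cross an intron.
Maoa brighter: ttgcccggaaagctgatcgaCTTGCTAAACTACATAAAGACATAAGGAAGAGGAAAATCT
Maoa dimmer: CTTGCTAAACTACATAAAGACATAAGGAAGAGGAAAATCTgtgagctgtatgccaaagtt
The other probes lie on rn3 at chr1:203318940-203318999 (Th, minus strand), chr14:92717818-92717877 (Ddc, minus), chr3:6068494-6068553 (Dbh, plus), chr15:23041506-23042537 (Gch1, minus, across an intron), chr16:22389667-22389726 (Slc18a1, plus), chr1:266035506-266035565 and chr1:266034337-266034396 (Slc18a2, plus) and chr16:7952407-7952466 (Chat, minus). Which exon or untranslated region each one matches was not worked out.

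Promoters were read for 8 of the 9 genes, as windows of 250 bases before and 50 after the start, credited to RefSeq on build GRCr8. No window was available for Slc18a1. Ddc had 3 windows and each of the other genes 1, which made 10 windows. The full CRE, TGACGTCA, which reads the same on both strands, was found in the windows of Th and Slc18a2 and in 1.83% of 33469 windows of all rat genes. The shorter CRE core, TGACG on either strand, which every full CRE also contains, was found in 7 of the 8 genes (all but Ddc) and in 21.2% of all windows. The AP-1 motif TGANTCA was found in Th and in 1 of the 3 windows of Ddc, and in 7.33% of all windows. The bases before the start are shown for Th, Dbh and Gch1, whose RNA rose at some time with loess. They are also shown for Slc18a2, which has a CRE and whose RNA was not well above background on most arrays. Maoa and the Ache probe NM_172009 also rose at some time, and the windows of these genes, each with a TGACG, are not shown. Capitals mark TGACG and its reverse complement.
Th, chr1:207508169-207508468, minus strand: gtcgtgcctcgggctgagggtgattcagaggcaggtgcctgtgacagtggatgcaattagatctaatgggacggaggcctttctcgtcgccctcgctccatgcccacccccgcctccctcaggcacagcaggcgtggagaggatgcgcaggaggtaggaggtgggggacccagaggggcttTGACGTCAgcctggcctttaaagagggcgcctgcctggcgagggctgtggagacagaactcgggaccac
Dbh, chr3:30886078-30886377, plus strand: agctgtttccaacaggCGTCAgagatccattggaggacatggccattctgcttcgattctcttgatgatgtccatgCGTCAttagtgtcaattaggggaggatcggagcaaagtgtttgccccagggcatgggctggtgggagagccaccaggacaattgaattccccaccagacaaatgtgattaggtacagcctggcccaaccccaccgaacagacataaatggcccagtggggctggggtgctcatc
Gch1, chr15:22917363-22917662, minus strand: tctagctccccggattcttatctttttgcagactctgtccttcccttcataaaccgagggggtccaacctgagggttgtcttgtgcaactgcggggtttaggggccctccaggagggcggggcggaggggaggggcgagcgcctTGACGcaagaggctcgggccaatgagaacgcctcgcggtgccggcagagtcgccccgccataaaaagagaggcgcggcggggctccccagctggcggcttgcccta
Slc18a2, chr1:268399771-268400070, plus strand: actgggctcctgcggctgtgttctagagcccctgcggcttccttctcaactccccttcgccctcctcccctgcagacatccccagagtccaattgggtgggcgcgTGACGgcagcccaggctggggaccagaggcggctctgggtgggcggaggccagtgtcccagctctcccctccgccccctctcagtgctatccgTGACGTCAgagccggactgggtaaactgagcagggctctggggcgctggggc
The coordinates are those of the whole windows of 300 bases. The CRE lies 69 to 62 bases before the start of Th and 52 to 45 bases before that of Slc18a2. These matches describe letters in a window and are not measurements of binding.

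Signal over local background set what could be measured. Th, Dbh, Gch1 and Slc18a1 were well above background in both channels on all 12 arrays, as were both Maoa probes and 2 of the 3 Ache probes. Ddc was above background on all 12 arrays in the reference channel and on 3 of 12 in the forskolin channel. Chat and Ache X70141 were above background on 0 of 12 arrays in either channel. Of the Slc18a2 probes, probe 1 was above background in the forskolin channel on 2 arrays and in the reference channel on 1, and probe 2 on 0 in either channel.

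**Figure D1:**
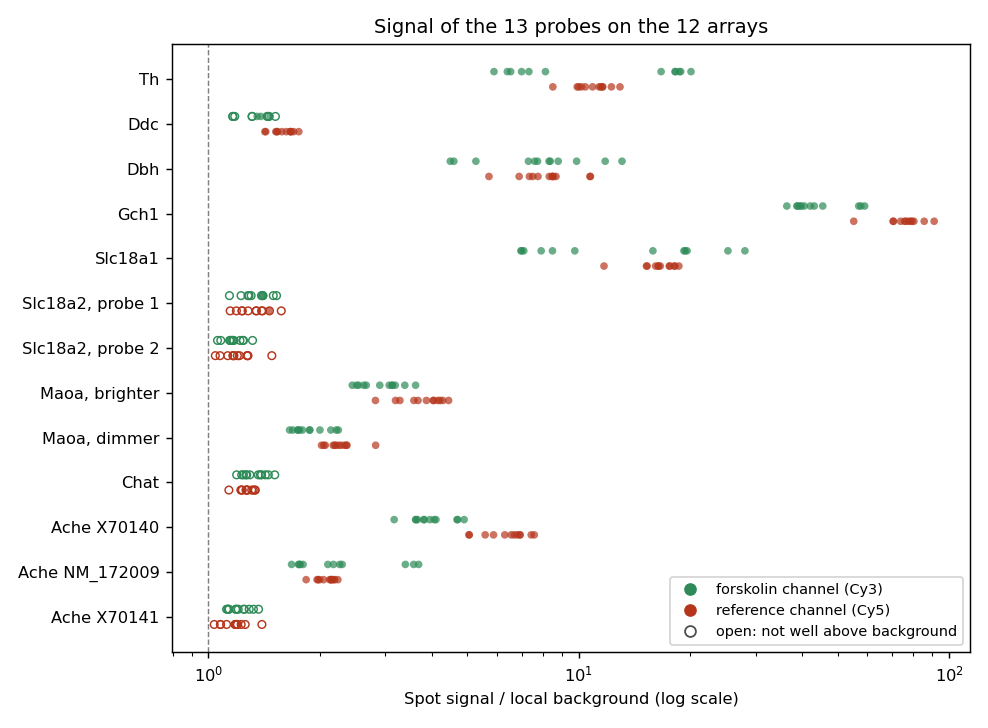
Ratio of spot signal to local background (log scale) for the 13 probes on the 12 arrays, forskolin channel above reference channel in each row, with 1 point for each array. Open points were not well above background, as for all points of Chat, Ache X70141 and Slc18a2 probe 2, and the dashed line marks a ratio of 1.

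At 2 h, 3 of the 9 tested probes were called, all higher, where 27.3% of all tested probes were called. With each array centred on its median in place of the loess step, 3 were called higher and 5 lower at 2 h. That setting called 17016 of all 20630 tested probes at 2 h, 8506 higher and 8510 lower. With loess, 8 of 9 were called at 4 h, 5 higher and 3 lower, against 48.8% of all. At 24 h, 6 were called, 5 higher and 1 lower, against 51.8%, and at 48 h 7 were called, 4 higher and 3 lower, against 55.9%. Between time points, 4 of 9 were called for 4 h over 2 h, against 14.7% of all, 6 for 24 h over 4 h, against 38%, and 3 for 48 h over 24 h, against 13.8%. The median change of the 9 probes was 0.11, 0.32, 0.16 and -0.04 at 2, 4, 24 and 48 h, and that of all tested probes was -0.02 at each of the 4 times.

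Th, the rate-limiting enzyme of catecholamine synthesis, rose at 24 and 48 h, with loess and with median centring alike. At 24 h its processed intensity in the forskolin channel was 3897, 4438 and 4294, against 1324, 1379 and 1337 in the reference channel of the same arrays. At 2 h it was 921, 969 and 974 with forskolin, against 910, 893 and 941 in the reference. The channels overlapped at 2 h and lay far apart at 24 h. These intensities are scaled within an array and not between arrays, so levels are compared here only on the same array. The log2 change was -0.02, 0.09 and 0.04 on the arrays of 2 h and 0.27, 0.30 and 0.41 on those of 4 h. It was 1.43, 1.54 and 1.53 on the arrays of 24 h and 1.34, 1.38 and 1.42 on those of 48 h. Thus Th did not pass the test at 2 h (0.04 ± 0.05, adjusted p = 0.58), was 1.25-fold higher at 4 h (0.32 ± 0.07, adjusted p = 2.5e-05), and rose 2.83-fold at 24 h (1.50 ± 0.06, adjusted p = 8.7e-12) and 2.60-fold at 48 h (1.38 ± 0.04, adjusted p = 8.3e-12). At 24 h, 99.7% of all tested probes had a smaller change in size. With median centring, Th stood at 1.01 at 24 h and 0.88 at 48 h, and its direction at 4 h turned (-0.11, adjusted p = 0.084).

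Between time points, Th was higher at 24 h than at 4 h by 1.18 ± 0.06 (SE, adjusted p = 4.1e-09). The same difference was 1.16, 1.24 and 1.12 within slides 1, 2 and 3. It was higher at 4 h than at 2 h by 0.29 ± 0.06 (SE, adjusted p = 0.0052), a call lost with median centring (adjusted p = 0.076). Between 48 h and 24 h the difference of -0.12 did not pass the test (95% interval -0.25 to 0.01, adjusted p = 0.22).

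Ddc, which makes dopamine from L-DOPA, was dim, with processed intensities of 10.6 to 51.2 with forskolin (median 32.1) and 41.6 to 72.7 in the reference (median 55.4). Its log2 change was -0.09 ± 0.08 at 2 h and did not pass the test (adjusted p = 0.24). It was -0.22 ± 0.09 at 4 h and -0.22 ± 0.08 at 24 h (both adjusted p = 0.0036). At 48 h it was -0.12 ± 0.12 (adjusted p = 0.075). Since forskolin signals were above background on 2, 1, 0 and 0 of 3 arrays at 2, 4, 24 and 48 h, the called change at 24 h has only a bound, at least 1.13-fold lower with forskolin, set on each array from the lowest signal that counted as measured or the probe's own, whichever was higher. Centring on the median turned the direction at 4 h (0.32) and at 24 h (0.20), and the scanner's processed signals gave -1.51 at 4 h and -1.15 at 24 h. Both the direction and the size of the Ddc change thus depended on the processing.

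Dbh, which makes noradrenaline, rose by 4 h and was highest at 48 h. Its processed intensity at 48 h was 2505, 2278 and 1865 in the forskolin channel, against 975, 1034 and 898 in the reference channel. The log2 change was 0.11, 0.21 and 0.12 at 2 h and 0.74, 0.65 and 0.77 at 4 h. It was 0.65, 0.78 and 0.87 at 24 h and 1.19, 1.04 and 0.94 at 48 h. Every array of 48 h lay above every array of the other times, and those of 4 h and 24 h overlapped. The means were 0.15 ± 0.06 at 2 h (adjusted p = 0.058), 0.72 ± 0.06 at 4 h (1.65-fold, adjusted p = 1.2e-07), 0.77 ± 0.11 at 24 h (1.70-fold, adjusted p = 4e-08) and 1.06 ± 0.13 at 48 h (2.08-fold, adjusted p = 9.9e-10). Dbh was higher at 4 h than at 2 h by 0.57 ± 0.08 (SE, adjusted p = 0.00016). Between 24 h and 4 h it differed by 0.05 (95% interval -0.11 to 0.21, adjusted p = 0.67). Between 48 h and 24 h it was higher by 0.29 ± 0.08 (SE, adjusted p = 0.021). That last difference was 0.53, 0.27 and 0.06 within slides 1, 2 and 3, and it lost its call without replicate 1 or 2 of 24 h or of 48 h (adjusted p up to 0.091) and with the processed signals (adjusted p = 0.089) or median centring (adjusted p = 0.082). At 2 h Dbh passed with the processed signals (0.22, adjusted p = 0.035) and turned with median centring (-0.18), which gave 0.30, 0.38 and 0.61 at 4, 24 and 48 h.

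Gch1, which encodes GTP cyclohydrolase I, the enzyme that opens the synthesis of the Th cofactor, had a peak at 4 h. Its processed intensity at 4 h was 12920, 12440 and 13280 in the forskolin channel, against 8023, 8203 and 8128 in the reference channel. The log2 change was 0.12, 0.14 and 0.09 at 2 h and 0.66, 0.59 and 0.68 at 4 h. It was 0.12, 0.17 and 0.20 at 24 h and -0.13, -0.09 and -0.15 at 48 h. The 4 h arrays did not overlap with those of any other time. Gch1 was 1.56-fold higher than the reference at 4 h (0.64 ± 0.05, adjusted p = 1.1e-08). At 24 h it was higher by 0.16 ± 0.04 (adjusted p = 0.0022) and at 48 h lower (-0.12 ± 0.03, adjusted p = 0.011), a call lost without replicate 3 of 48 h (adjusted p = 0.062) and with the processed signals (adjusted p = 0.072). The small rise at 2 h (0.12 ± 0.02, adjusted p = 0.033) lost its call when any array of 2 h was left out.

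The same course was seen between time points. Gch1 was higher at 4 h than at 2 h by 0.53 ± 0.05 (SE, adjusted p = 1.4e-05), lower at 24 h than at 4 h (-0.48 ± 0.05, SE, adjusted p = 6.1e-06) and lower again at 48 h than at 24 h (-0.29 ± 0.05, SE, adjusted p = 0.0023). Median centring left these differences at 0.54, -0.50 and -0.31. Its level against the reference did depend on that choice, as with median centring it was -0.56, -0.01, -0.51 and -0.82 at 2, 4, 24 and 48 h.

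**Figure D2:**
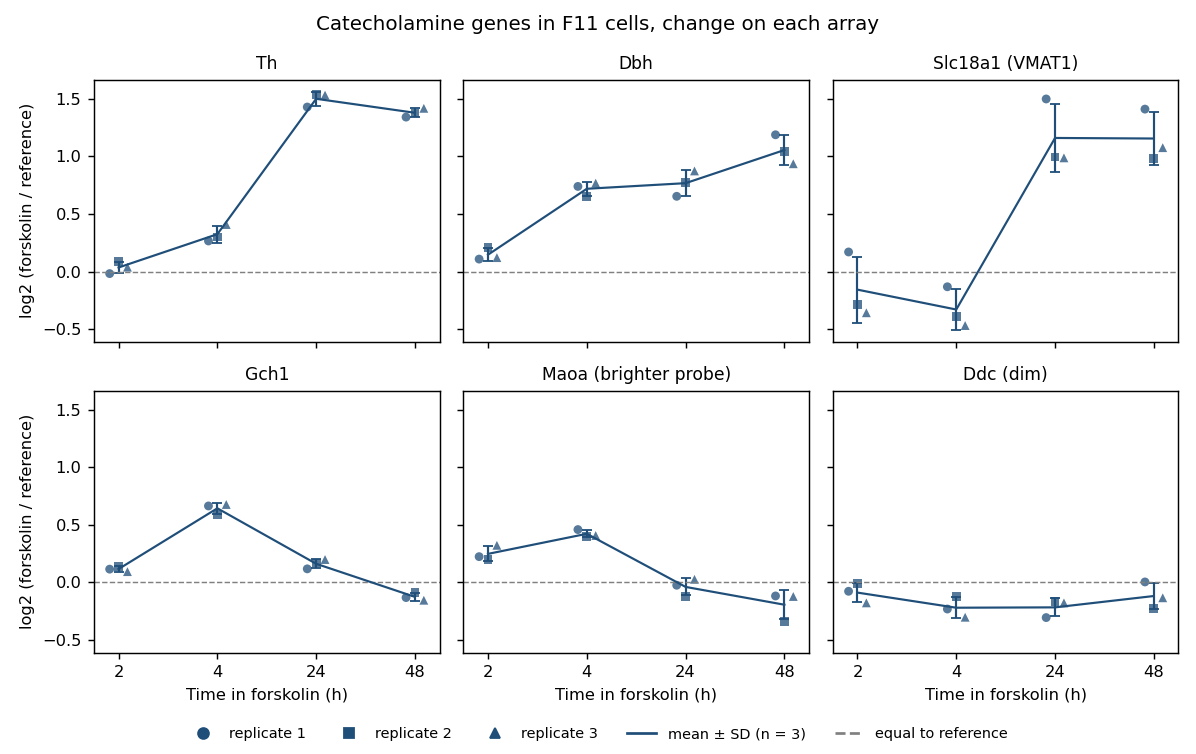
Log2 ratio of forskolin over reference (vertical axis) at 2, 4, 24 and 48 h (horizontal axis, evenly spaced) for 6 probes, 1 marker for each array, line and bars for mean and SD of 3 arrays. Th lies at 1.34 to 1.54 and Slc18a1 at 0.98 to 1.50 on the arrays of 24 and 48 h, Gch1 is highest at 4 h, and Dbh is highest at 48 h.

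Slc18a1 and Slc18a2 encode the vesicular monoamine transporters VMAT1 and VMAT2, which load catecholamines into vesicles. Slc18a1 was high at 24 and 48 h. Its processed intensity at 24 h was 5445, 4020 and 3823 in the forskolin channel, against 1837, 1881 and 1799 in the reference channel. The log2 change was 0.17, -0.28 and -0.36 at 2 h and -0.13, -0.39 and -0.47 at 4 h. It was 1.50, 0.99 and 0.99 at 24 h and 1.41, 0.98 and 1.08 at 48 h. The late arrays did not overlap with the early ones, and at each of the 4 times replicate 1, on slide 1, was the highest.

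Slc18a1 rose 2.23-fold at 24 h (1.16 ± 0.29, adjusted p = 1.5e-06) and 2.23-fold at 48 h (1.16 ± 0.23, adjusted p = 1.2e-06). Without replicate 1 of 24 h the change there was 0.99, still called. At 4 h it fell by 0.33 on the log2 scale (SD 0.18, adjusted p = 0.03), a call that was lost without replicate 2 or 3 of 4 h and with the processed signals (adjusted p = 0.094). At 2 h the change of -0.16 ± 0.29 did not pass the test (adjusted p = 0.34), whereas with the slide as a block it did (adjusted p = 0.016). Slc18a1 was higher at 24 h than at 4 h by 1.49 ± 0.16 (SE, adjusted p = 6.5e-06), and by 1.63, 1.38 and 1.46 within slides 1, 2 and 3. Between 48 h and 24 h the difference was 0.00 (95% interval -0.36 to 0.35, adjusted p = 0.99). Median centring gave 0.64 at 24 h and 0.61 at 48 h, with an adjusted p of 3.8e-05 and 6.4e-05.

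For Slc18a2 no change can be given. Processed intensities of probe 1 were 13.8 to 41.0 with forskolin and 9.81 to 30.6 in the reference, and those of probe 2 were 5.25 to 9.36 with forskolin and 4.95 to 19.2 in the reference. The channels overlapped for both probes.

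Maoa, the mitochondrial monoamine oxidase A that oxidises noradrenaline and other monoamines, had an early rise that was gone by 24 h. The brighter probe had processed intensities of 608, 641 and 632 in the forskolin channel at 4 h, against 368, 404 and 389 in the reference channel. At 48 h they were 377, 289 and 311 with forskolin, against 424, 419 and 386 in the reference. Forskolin was above the reference on all 3 arrays of 4 h and below it on all 3 of 48 h. The log2 change of the brighter probe was 0.22, 0.20 and 0.32 at 2 h and 0.46, 0.40 and 0.41 at 4 h. It was -0.02, -0.12 and 0.03 at 24 h and -0.12, -0.34 and -0.12 at 48 h. The means were 0.25 ± 0.07 at 2 h (adjusted p = 0.0025), 0.42 ± 0.03 at 4 h (1.34-fold, adjusted p = 9.3e-06), -0.04 ± 0.07 at 24 h (adjusted p = 0.54) and -0.19 ± 0.13 at 48 h (adjusted p = 0.0044). The call at 48 h was lost without replicate 2 of that time (-0.12, adjusted p = 0.079).

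The dimmer Maoa probe gave 0.11 ± 0.02, 0.43 ± 0.11, -0.03 ± 0.07 and -0.27 ± 0.14 at 2, 4, 24 and 48 h, with adjusted p = 0.14, 1.6e-05, 0.66 and 0.00072. Both probes fell between 4 h and 24 h, by 0.46 on the log2 scale for the brighter probe (adjusted p = 0.00013) and by 0.46 for the dimmer one (adjusted p = 0.00025). At 4 h over 2 h the brighter probe did not pass the test (0.17, adjusted p = 0.12), and the dimmer one did (0.32, adjusted p = 0.012), without a test of the difference between them. That call was lost without replicate 1 or 3 of 4 h and with the processed signals (adjusted p = 0.08). At 48 h over 24 h neither passed (-0.15, adjusted p = 0.18, and -0.24, adjusted p = 0.054), and with the slide as a block the dimmer probe did (adjusted p = 0.042). With the processed signals the dimmer probe stood at -0.86 at 48 h. Median centring left the dimmer probe uncalled there (-0.13, adjusted p = 0.069) and the brighter probe uncalled at 2 h (0.11, adjusted p = 0.095).

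Of the acetylcholine enzymes, Chat had processed intensities of 10.2 to 32.9 with forskolin and 10.1 to 27.6 in the reference, not well above background on any array, so that no change can be given. For Ache the probes gave different results. The brighter probe, X70140, had processed intensities of 743, 829 and 807 in the forskolin channel at 48 h, against 800, 815 and 810 in the reference channel. The probe NM_172009 had 620, 528 and 545 with forskolin, against 146, 157 and 151 in the reference. The channels overlapped for X70140 and stood far apart for NM_172009.

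On X70140 the log2 change was -0.04 ± 0.02 at 2 h (adjusted p = 0.59), -0.18 ± 0.13 at 4 h (adjusted p = 0.011), -0.11 ± 0.11 at 24 h (adjusted p = 0.11) and -0.04 ± 0.06 at 48 h (95% interval -0.15 to 0.08, adjusted p = 0.58). The call at 4 h rested on replicate 1 (-0.34 there, -0.12 and -0.09 on the others) and was lost without it (adjusted p = 0.15). On NM_172009 the change was 0.15, 0.06 and 0.36 at 2 h and 0.13, 0.14 and 0.02 at 4 h. It was 0.40, 0.32 and 0.27 at 24 h and 1.26, 1.02 and 1.00 at 48 h. The 48 h arrays lay above those of all other times. This probe rose 2.13-fold at 48 h (1.09 ± 0.15, adjusted p = 3e-09) and 1.26-fold at 24 h (0.33 ± 0.07, adjusted p = 0.00046), and did not pass at 4 h (0.09 ± 0.07, adjusted p = 0.24). The processed signals put it at 1.90 at 48 h and median centring at 1.06. The small rise at 2 h (0.19 ± 0.15, adjusted p = 0.034) was lost without replicate 1 or 3 of 2 h and with no background correction (adjusted p = 0.092).

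NM_172009 was higher at 48 h than at 24 h by 0.76 ± 0.09 (SE, adjusted p = 5.4e-05), and by 0.86, 0.70 and 0.73 within slides 1, 2 and 3. Of all tested probes, 99.5% had a smaller difference between these times. Between 24 h and 4 h the difference of 0.24 ± 0.09 (SE, adjusted p = 0.045) was lost in 8 of the 12 fits with an array left out and with median centring. The gap between the Ache probes, NM_172009 minus X70140 on the same array, was 0.23 ± 0.14, 0.27 ± 0.18, 0.44 ± 0.14 and 1.13 ± 0.20 at 2, 4, 24 and 48 h (SD, n = 3). The gaps at 48 h (1.00 to 1.36) did not overlap with those at 2 h (0.12 to 0.39), with a two-sided exact permutation p of 0.1, which is the smallest that 3 against 3 allows. What transcript each probe binds in F11 cells was not tested.

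**Figure D3:**
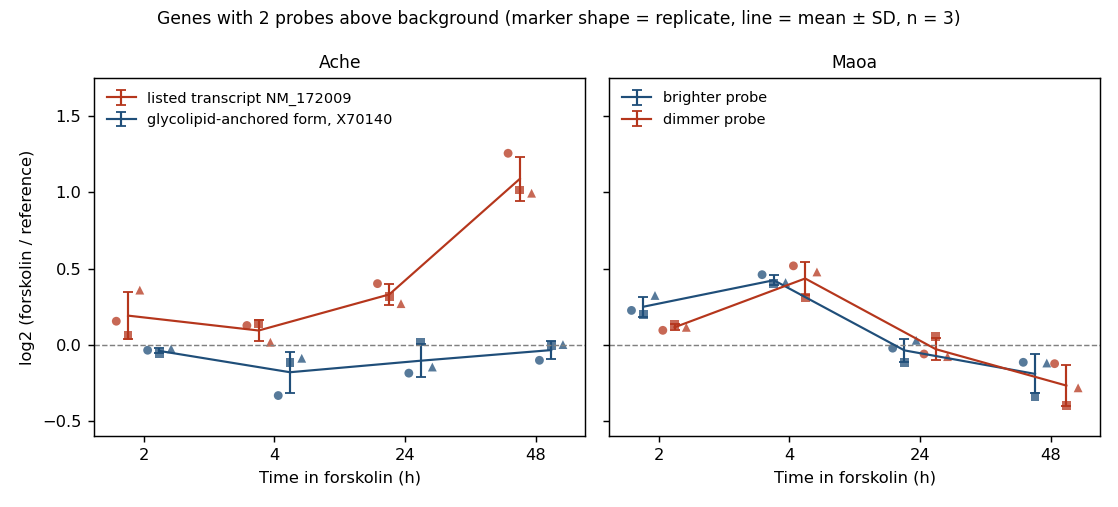
Log2 ratio of forskolin over reference (vertical axis) at 2, 4, 24 and 48 h for the genes with 2 probes above background, 1 marker for each array, line and bars for mean and SD of 3 arrays. The Ache probe NM_172009 reaches 1.09 at 48 h while X70140 is at -0.04, and both Maoa probes peak at 4 h.

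Other genes of these pathways were counted by role from a list of 76, of which 71 had a probe and 46 passed the filter. Over all roles 7 rose and 7 fell at 2 h, 9 rose and 11 fell at 4 h, 11 rose and 13 fell at 24 h, and 16 rose and 8 fell at 48 h, against a background of 10.7% higher and 16.6% lower, 21% and 27.9%, 24.2% and 27.6%, and 26.5% and 29.4% of all probes. Their median change was -0.01, -0.03, -0.03 and 0.05 at the 4 times. With median centring the counts were 20 and 19, 20 and 17, 19 and 16, and 19 and 12. That setting called 8506 of all 20630 probes higher and 8510 lower at 2 h, and 8554 and 8555 at 4 h. At 24 h it called 8117 higher and 8295 lower, and at 48 h 8297 and 8475. These numbers are the background for the median-centred counts by role below.

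Among 5 tested genes of the pterin cofactor, Gchfr, which encodes the feedback regulatory protein of GTP cyclohydrolase I, rose at 24 h (0.84 ± 0.06, adjusted p = 4.1e-09) after values of 0.00 at 2 h and -0.05 at 4 h, although median centring left it at 0.01. Qdpr, which regenerates tetrahydrobiopterin, fell at 24 h (-0.43 ± 0.08, adjusted p = 2e-06) and was higher at 48 h (0.39, adjusted p = 4.8e-06). The other members, Pts, Spr and Pcbd1, passed at none of the 4 times on their brightest probe. The other passing probe of Spr was at 0.39 at 4 h, where the brightest was at 0.15. Pcbd1 was above background on 8 of 12 arrays in the forskolin channel and 10 of 12 in the reference channel.

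Of 10 genes of catecholamine turnover, 1 rose and 1 fell at 2 h, 4 and 3 at 4 h, 3 and 4 at 24 h, and 3 and 2 at 48 h. The 10 include the serotonin genes Tph1, counted as higher at 4 h (0.19) and lower at 24 h (-0.38), and Slc6a4, lower at 24 h (-0.15). At 24 h the other passing probe was at -0.23 for Tph1 and at 0.02 for Slc6a4. Tph1 and Maob, both counted as lower at 24 h, were above background in the forskolin channel on 0 of the 3 arrays of that time. Aldh2, an aldehyde dehydrogenase that clears the aldehydes monoamine oxidases produce, rose to 0.75 at 48 h (adjusted p = 6e-08). The aldehyde reductase Akr1a1 rose to 0.56 at 48 h, turned by median centring to -0.12. The aldose reductase Akr1b1 rose to 0.45 at 24 h, and median centring left it uncalled at 0.14. Comtd1, a putative methyltransferase, fell by 0.43 at 24 h. The noradrenaline transporter Slc6a2 was above background on 1 of 12 arrays in the forskolin channel and 8 of 12 in the reference channel, so that no change is given. With median centring the counts of higher and lower genes were 5 and 5, 4 and 3, 5 and 3, and 5 and 2.

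Of 7 genes of acetylcholine supply and packing, 1 rose and 1 fell at 2 h, 2 and 0 at 4 h, 3 and 1 at 24 h, and 4 and 0 at 48 h. The 4 include the dim Acss2 (0.38 at 48 h), whose reference signal was above background on 1 of the 3 arrays of that time. Median centring made the counts at the 4 times 2 and 5, 2 and 5, 3 and 3, and 3 and 3, and it put Acly at 0.31 at 24 h. Acly, which makes cytosolic acetyl-CoA, rose by 1.06 ± 0.03 at 24 h (adjusted p = 1.9e-10). The choline transporter-like gene Slc44a1 rose by 0.62 at 48 h (adjusted p = 7.6e-05) on its brightest probe, while its other passing probe was at 0.07. Chka, a choline kinase, rose at all 4 times, with 0.45 at 24 h. Slc18a3, the vesicular acetylcholine transporter, lies within the Chat gene locus and was measured although Chat was not: its change was 0.02, 0.36, -0.46 and -0.09 at 2, 4, 24 and 48 h, called at 4 h (adjusted p = 7.8e-05) and 24 h (adjusted p = 5.8e-06).

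Of 16 tested receptor genes, 0 rose and 4 fell at 2 h and again at 4 h, 1 rose and 4 fell at 24 h, and 3 rose and 4 fell at 48 h. The gene that rose at 24 h was Chrnb1, a nicotinic subunit gene (0.27), which also counted as higher at 48 h (0.26). Its reference signal was above background on 0 arrays of either time. A stricter filter left 0 receptor genes higher at 24 h and 2 at 48 h, with 4 lower at each time. The balance of higher and lower receptor genes also depended on the scaling. Median centring gave 10 higher and 3 lower at 2 h and at 4 h. It gave 9 and 4 at 24 h, and 9 and 2 at 48 h. The nicotinic subunit gene Chrna3, typical of autonomic ganglia, was lower at 4 h (-0.46, adjusted p = 1.5e-06) and higher at 48 h (0.47, adjusted p = 7.3e-07). Chrna7, another nicotinic subunit, fell by 0.42 at 48 h (adjusted p = 5.7e-05), and the dopamine receptor genes Drd4 and Drd5 fell by 0.38 and 0.33 at 24 h. Chrna7 was above background in the forskolin channel on 1 of the 3 arrays of 48 h. The processed signals put Chrna7 at -2.14 and Drd4 at -1.14, and median centring left Chrna3 at 48 h and Chrna7 uncalled (0.07 and -0.14).

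Of 8 transcription factors listed for noradrenergic identity, 5 rose and 0 fell at 2 h, 3 rose and 3 fell at 4 h and again at 24 h, and 4 rose and 2 fell at 48 h. Median centring turned this to 2 and 3, 3 and 4, 1 and 5, and 1 and 3. The list is not specific to that identity, as it holds Nr4a2 and also Isl1, which was listed as a sensory neuron marker too. The orphan nuclear receptor gene Nr4a2, a known activator of Th in dopaminergic neurons, rose by 1.65 ± 0.02 at 2 h (adjusted p = 1.6e-09) and 1.33 at 4 h, and stood at 0.11 at 24 h and 0.12 at 48 h (adjusted p = 0.2 and 0.18). The homeobox gene Phox2a, an activator of Dbh, was at 0.17, -0.27, 0.68 and 0.93 at the 4 times (adjusted p = 5.9e-10 at 48 h), with median centring at 0.10 at 48 h. Hand2, a basic helix-loop-helix factor, rose by 0.90 at 4 h (adjusted p = 1.8e-09), with its other passing probe at 0.76. Hand1, counted as lower at 24 h (-0.24), was at -0.03 there on its other passing probe. The zinc-finger factor Gata3 rose by 0.54 at 2 h (adjusted p = 1.9e-06) and was at -0.34 at 24 h. The processed signals put Nr4a2 at 2.44 and Gata3 at 1.02 at 2 h, and median centring put Hand2 at 0.29 at 4 h.

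**Figure D4:**
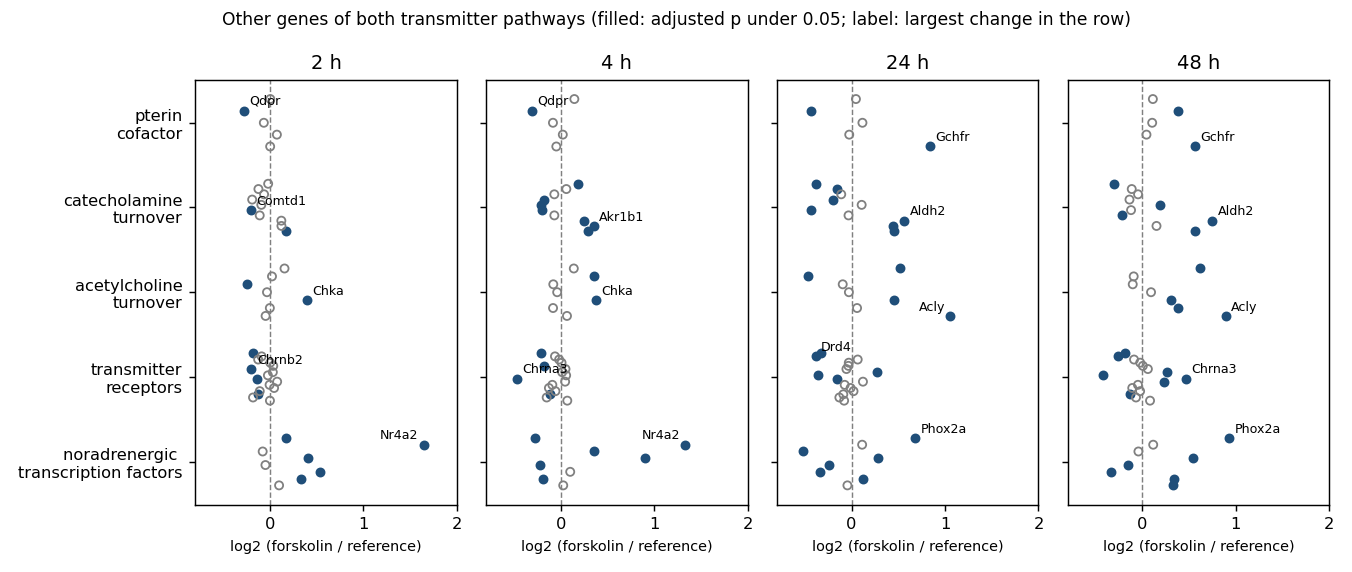
Log2 ratio of forskolin over reference (horizontal axis) for the 46 tested genes, in rows by role and panels by time, 1 point for each gene (mean of 3 arrays). Filled points passed an adjusted p of 0.05, and the largest change of each row is named, such as Nr4a2 at 2 and 4 h and Phox2a at 24 and 48 h.

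The genes whose ratios over the 12 arrays were most like those of Th and of Slc18a1 were sought among 419 named genes with a change of at least 1 at some time. Th was taken for its change in size and Slc18a1 for the lowest value of a member against the reference under loess (-0.33 at 4 h), a call that did not hold under every alternative. For Th these were Msmo1 (listed as Sc4mol, r = 0.996), isg12(b), Jph3 and Sqle (r = 0.993 each) and Acly (r = 0.99). For Slc18a1 they were F2rl2 and Adprtl1 (r = 0.973 each), Aacs (r = 0.97), Cacna1c (r = 0.964) and Ptpn6 (r = 0.963). Msmo1 stood at -0.26, 0.23, 1.82 and 1.77 at the 4 times, and F2rl2 at -0.07, -0.21, 1.01 and 0.90. The correlations describe 12 arrays that share slides and a reference and fall into early and late times.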

How the data were processed

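Per the file headers, the Agilent 2-colour rat arrays were read with Feature Extraction 9.5.1.1 and annotated on build rn3. Each deposited file gives the mean intensity of 45018 spots and the median intensity of the local background in both channels, processed intensities (background-subtracted and dye-normalized by the scanner software) and flags, with other upstream steps not given in the sources used here. The authors' deposited log2 values, made with limma per the submitters' processing notes (version not given), ran red over green against the ratios used here (r of -0.9999 to -0.9975) with column medians of 0.007 to 0.012. They were turned round and used as an alternative.

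Mean intensities were corrected with normexp (offset 50) and normalized by loess within arrays with limma (version 3.58.1) in R (version 4.3.3); files were read by data.table (version 1.17.8). Control spots had weight 0, spots with outlier flags were dropped and spots of a probe averaged (10 for Th, 1 for the other members). A mean for each of the 4 time points was fitted over 12 arrays and 20630 probes with lmFit and eBayes, leaving 8 residual degrees of freedom, and 7 comparisons were tested. The fit was tested on simulated data. The common reference counted as a single control sample, whose own spread is unknown. The number of spots that stood clear of background was 19889 to 21973 with forskolin and 19504 to 23285 in the reference, and the 3 arrays for each time point limit the precision.

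The members and gene lists were chosen with earlier results of these data known. Named pathway genes were up to 4 called ones in each role with the largest change. The rest named in the text, Slc6a2, Tph1, Slc6a4, Maob, Acss2, Chrnb1, Hand1, Isl1, Pts, Spr and Pcbd1, were picked after their values were seen. Replicate numbers mark slides per the file headers, and same-numbered arrays deviated together (median r = 0.224 over 18 pairs, 0.0585 to 0.479). Between different numbers the median r was -0.214 over 36 pairs (-0.4 to 0.309), with 10 pairs over 0.1. Replicates 2 and 3 also deviated together, with r up to 0.309. Deviations were taken from the mean of the 3 arrays of a time, which by itself lowers r between different numbers. Alternatives were no background correction, processed signals, median centring, no filter, a stricter filter, 1 probe for each gene, the slide as a block, the authors' deposited values and leaving out each array.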

Additional observations from a re-analysis of the deposited data

Results flagged for a closer look

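These differences between time points of the same probe passed the test and so are given together as log2 values. Th differed by 0.29 (4 h over 2 h) and 1.18 (24 h over 4 h), and Dbh by 0.57 (4 h over 2 h) and 0.29 (48 h over 24 h). Gch1 differed by 0.53, -0.48 and -0.29 over the 3 successive intervals. Slc18a1 differed by 1.49 (24 h over 4 h). The brighter Maoa probe differed by -0.46 (24 h over 4 h), and the dimmer one by 0.32 (4 h over 2 h) and -0.46 (24 h over 4 h). The Ache probe NM_172009 differed by 0.24 (24 h over 4 h) and 0.76 (48 h over 24 h), whereas the Ache probe X70140 passed in 0 of these intervals. A dye bias of a probe cancels in these differences, and each coincides with a change of position on the slide.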

How the results depend on the processing

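Of the 37 called member values, 6 turned with median centring, all of them changes against the reference, and 0 under the other alternatives. Every called difference between time points kept its direction. With median centring, Th turned to -0.37 at 2 h and -0.11 at 4 h, Dbh to -0.18 at 2 h, Gch1 to -0.56, -0.014 and -0.51 at 2, 4 and 24 h, the dimmer Maoa probe to 0.086 at 24 h, Akr1a1 to -0.12 at 48 h, and Ddc to 0.35, 0.32, 0.20 and 0.29 at the 4 times and -0.13 at 24 h over 4 h. Before loess, the median ratio of the tested probes was -1.26 to -0.69, and the cause of the difference between loess and median centring was not tested. Median centring also moved the calls over all probes to 17016 at 2 h (main 5632), 17109 at 4 h (10068), 16412 at 24 h (10682), 1304 at 4 h over 2 h (3034) and 1354 at 48 h over 24 h (2842), and those of the members to 8 at 2 h (3) and 2 at 4 h over 2 h (4). The share of higher calls at 2 h was 50% with median centring and 39.1% with loess. Without the filter, 1 member probe was called at 2 h. Processed signals turned Slc18a1 at 48 h over 24 h to 0.0094. The slide as a replicate block kept all 37 called member values and added Slc18a1 at 2 h (-0.16) and the dimmer Maoa probe at 48 h over 24 h (-0.24), and it moved no count by over 1.5 times. The authors' deposited values changed no call of a member.

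With 1 array left out, calls over all probes ranged from 3022 to 6174 at 2 h, 8080 to 10507 at 4 h, 8708 to 11096 at 24 h, 9898 to 11655 at 48 h, 1976 to 3394 at 4 h over 2 h, 6694 to 8259 at 24 h over 4 h and 1974 to 2960 at 48 h over 24 h. Those of the members ranged from 1 to 4, 7 to 8, 6 to 7, 6 to 8, 3 to 4, 5 to 6 and 2 to 4. The counts moved by over 1.5 times without a 2 h array (3490 and 3022 over all probes without replicate 2 and 3, and 1 member without replicate 1 or 3) and without replicate 3 of 4 h (1976). Uncalled values near 0 turned without an array, over ranges of -0.038 to 0.050 for Ddc, -0.0010 to 0.12 for Ache X70140 and -0.0043 to 0.11 for Dbh at 24 h over 4 h, -0.071 to 0.0019 for the brighter Maoa probe at 24 h and -0.13 to 0.16 for Slc18a1 at 48 h over 24 h. Dim probes limit what Ddc, Slc18a2, Chat and Ache X70141 can show.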
